A study of Homo sapiens with 2 samples.

Results

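The FOS and JUN genes encode the subunits of AP-1, a transcription factor that works as a dimer. They were measured in HSC-3 cells, an established human line of tongue carcinoma origin, grown on Myogel and on plastic. All 7 genes of the 2 families were taken, FOS, FOSB, FOSL1, FOSL2, JUN, JUNB and JUND, and all 17 probe sets that the annotation of the array gives to 1 of them alone, out of 54613 probe sets and 19775 genes. No probe set listed a member among several genes. The families were chosen by their values on these same 2 arrays, in which FOS and JUNB had already been seen to be higher on Myogel. The differences between the surfaces are therefore a description of the arrays and not a test.

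On Myogel, the cells grew on wells coated with a protein extract of human uterus leiomyoma, a benign tumour of smooth muscle. On plastic, they grew in uncoated wells. In both groups the cells were HSC-3 carrying a red fluorescent protein from a lentivirus with a non-coding control sequence, selected with puromycin and grown in medium with serum and hydrocortisone. RNA of 3 wells, each seeded with 90000 cells the day before, was pooled in equal amounts for 1 Affymetrix U133 Plus 2.0 array per surface. With 1 array for each surface no spread between replicates can be had, no p-value is given, and the 2 arrays limit the precision of every value. As a description of spread, the log2 fold change (log2 FC, Myogel over plastic) of a FOS or JUN probe set is set beside a span. This span held the middle 95% of the log2 FCs of the 1000 probe sets closest to that probe set in mean signal. It comes from other probe sets on the same 2 arrays and is not an error between replicates.

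AP-1 dimers form through a leucine zipper, and the basic region beside it grips the DNA motif TGACTCA. JUN proteins can pair with each other or with a FOS protein, while FOS proteins need a JUN partner. FOS, FOSB and JUNB are classic immediate early genes, switched on within minutes by growth factors, adhesion or stress through MAP kinases and without new protein synthesis. FOSL1 and FOSL2 follow later, and JUND is present in most resting cells. In squamous epithelium and its carcinomas AP-1 is known to act on genes of proliferation, differentiation and matrix proteases.

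The stretches of DNA just before these genes are shown because early genes are switched on there. RefSeq promoter windows of GRCh38.p14, from 250 bases before the annotated start to 50 bases after it, matched 6 of the 7 genes. The 5 shown are those of FOS (chr14:75278578-75278877, plus strand), JUNB (chr19:12791236-12791535, plus strand), JUND (chr19:18281573-18281872, minus strand) and JUN (chr1:58783998-58784297, minus strand), each with a probe set higher on Myogel by FC 1.5 or more, and of FOSL2 (chr2:28392608-28392907, plus strand), which had none. Capitals mark matches to TGACTCA (the AP-1 motif), TGACGTCA (the cAMP response element, CRE), TGACG (a shorter core of it), TGACATCA (an AP-1-like variant) and TATAAA (the TATA box), on either strand.
FOS: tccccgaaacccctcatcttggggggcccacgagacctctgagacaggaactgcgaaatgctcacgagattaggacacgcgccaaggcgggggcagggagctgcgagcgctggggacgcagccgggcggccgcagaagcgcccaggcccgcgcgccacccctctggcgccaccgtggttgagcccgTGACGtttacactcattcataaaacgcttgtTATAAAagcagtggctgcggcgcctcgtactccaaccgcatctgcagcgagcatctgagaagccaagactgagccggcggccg
JUNB: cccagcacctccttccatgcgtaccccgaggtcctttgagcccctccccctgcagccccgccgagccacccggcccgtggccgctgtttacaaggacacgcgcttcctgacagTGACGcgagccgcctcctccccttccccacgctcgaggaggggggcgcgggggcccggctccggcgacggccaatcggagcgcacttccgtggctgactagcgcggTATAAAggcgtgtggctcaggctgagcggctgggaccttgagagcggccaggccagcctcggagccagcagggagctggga
JUND: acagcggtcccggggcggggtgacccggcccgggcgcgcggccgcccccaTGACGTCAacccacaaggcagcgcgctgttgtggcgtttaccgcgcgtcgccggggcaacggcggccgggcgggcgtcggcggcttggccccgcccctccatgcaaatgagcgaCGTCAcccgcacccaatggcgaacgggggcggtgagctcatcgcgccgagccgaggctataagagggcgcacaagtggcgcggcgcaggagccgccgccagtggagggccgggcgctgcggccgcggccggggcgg
JUN: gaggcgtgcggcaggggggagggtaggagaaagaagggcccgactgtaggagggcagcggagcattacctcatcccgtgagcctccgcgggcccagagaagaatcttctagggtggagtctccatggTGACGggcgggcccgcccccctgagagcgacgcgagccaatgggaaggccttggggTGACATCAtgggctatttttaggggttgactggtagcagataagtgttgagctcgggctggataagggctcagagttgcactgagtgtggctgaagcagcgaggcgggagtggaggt
FOSL2: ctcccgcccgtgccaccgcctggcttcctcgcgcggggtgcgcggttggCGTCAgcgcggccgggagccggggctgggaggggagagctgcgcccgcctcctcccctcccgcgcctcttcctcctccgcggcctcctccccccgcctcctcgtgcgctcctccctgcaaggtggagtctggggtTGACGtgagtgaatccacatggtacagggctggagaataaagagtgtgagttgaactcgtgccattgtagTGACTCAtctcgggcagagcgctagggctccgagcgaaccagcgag

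The core TGACG was in all 6 windows, and in 24.6% of the 35116 windows of this length. The 6 windows were richer in G and C (62% to 77%) than the median window (58.7%). The part of this in the matches was not tested. In FOS the core began 64 bases before the start, and in FOSB and FOSL2 60 and 66 bases before it. In JUN and JUNB the core lay further out, 123 and 137 bases before the start. On the other strand, FOSL2 held a core 201 bases before its start, and JUND held one 86 bases before its start. JUND held the full TGACGTCA, which covers 2 overlapping cores, 200 bases before its start (1.85% of all windows hold it). JUN held TGACATCA 67 bases before its start (2.61% of all windows), and FOSL2 held TGACTCA just after its start (4.95%). TATAAA was in the windows of FOS, FOSB and JUNB, between 30 and 33 bases before the start, and in 11.5% of all windows. The CArG box, which binds SRF, was in none of the 6 windows and in 1.29% of all windows. The windows reach only 250 bases before the start, and DNA further out was not searched. These are matches of letters and no measurement of binding.

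**Figure D1:**
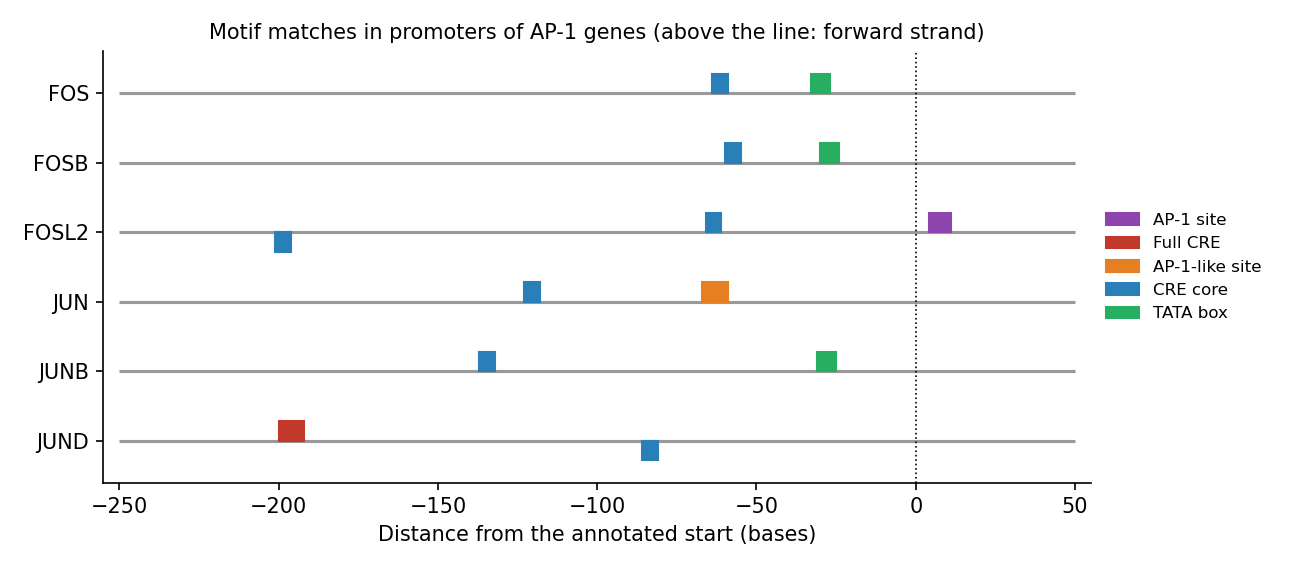
Positions of the motif matches in the promoter windows of 6 AP-1 genes (rows) against the distance from the annotated start in bases (x axis). Blocks above a line are on the gene's own strand and blocks below it on the other. Cores inside the full CRE of JUND are not drawn apart, and every row holds a CRE motif, full or core.

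FOS and JUNB had the largest fold differences of the 7 genes among those measured clear of the floor, and both were higher on Myogel. FOS, the founding partner of JUN in AP-1, had a value of 676 on Myogel and 145 on plastic in its only probe set (209189_at), a 4.67-fold difference. Its log2 FC was 2.22, where the middle 95% of probe sets of like signal lay from -0.70 to 0.60. Of the 9888 genes whose signal reached the median (142) or more, FOS had the highest FC of all. JUNB had 424 on Myogel and 201 on plastic, a 2.11-fold difference (201473_at, its only probe set). JUNB, which pairs with FOS but can also curb JUN, had a log2 FC of 1.07 (middle 95% from -0.70 to 0.59) and the sixth place in the same order.

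JUND and JUN were also higher on Myogel in their brightest probe sets, by a smaller fold. In linear units their differences of 460 and 442 were larger than the 223 of JUNB. JUND, a subunit often linked to slower growth, had 1292 on Myogel and 832 on plastic in 203752_s_at. This was a 1.55-fold difference, with a log2 FC of 0.64 against a middle 95% from -0.54 to 0.50. Its 3 dimmer probe sets did not share 1 direction. They had 39.2 on Myogel and 60.3 on plastic (229117_s_at), 14.4 on Myogel and 7.74 on plastic (203751_x_at), and 1.00 on Myogel and 1.26 on plastic (214326_x_at). All 3 lay inside the spans for their signal, and the last was at or near the floor on both arrays. The mean log2 FC over the 4 probe sets of JUND was 0.14, which is within FC 1.5.

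JUN, the partner that every FOS protein can use, was higher on Myogel in all 4 of its probe sets. The brightest (201464_x_at) had 1367 on Myogel and 925 on plastic, which is 1.48-fold and so just short of FC 1.5. Its log2 FC of 0.56 lay above the middle 95% for its signal, from -0.51 to 0.48. A dimmer probe set (213281_at) had 165 on Myogel and 85.8 on plastic, a 1.92-fold difference with a log2 FC of 0.94, and lay above its span too (-0.95 to 0.74). The other two had 244 on Myogel and 239 on plastic (201466_s_at), and 19.3 on Myogel and 13.4 on plastic (201465_s_at). Probe sets of JUN thus ranged in log2 FC from 0.03 to 0.94 for 1 gene.

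FOSL1 and FOSL2, the subunits that lack the strong activation domains of FOS, stayed within FC 1.5. FOSL1, a FOS protein abundant in invasive carcinoma lines, had 515 on Myogel and 379.8 on plastic. Its log2 FC of 0.44 lay inside the span for its signal (-0.62 to 0.61). FOSL2 had 5 probe sets, of which the brightest (228188_at) had 2268 on Myogel and 2137 on plastic. The next (225262_at) had 1307 on Myogel and 1415 on plastic. The 3 dimmer ones were lower on Myogel by log2 FCs of -0.41, -0.49 and -0.38, as in 218880_at with 153 on Myogel and 203 on plastic. All 5 lay inside the spans for their signal, and the mean over them was -0.26, opposite in sign to the 0.09 of the brightest.

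FOSB, the close relative of FOS in the early response, was at the bottom of the scale on both arrays. Its only probe set (202768_at) had 2.80 on Myogel and the floor value of 1.00 on plastic. The ratio against the floor has no fixed size, and its log2 FC of 1.49 lay inside the span for its signal (-1.92 to 1.90).

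**Figure D2:**
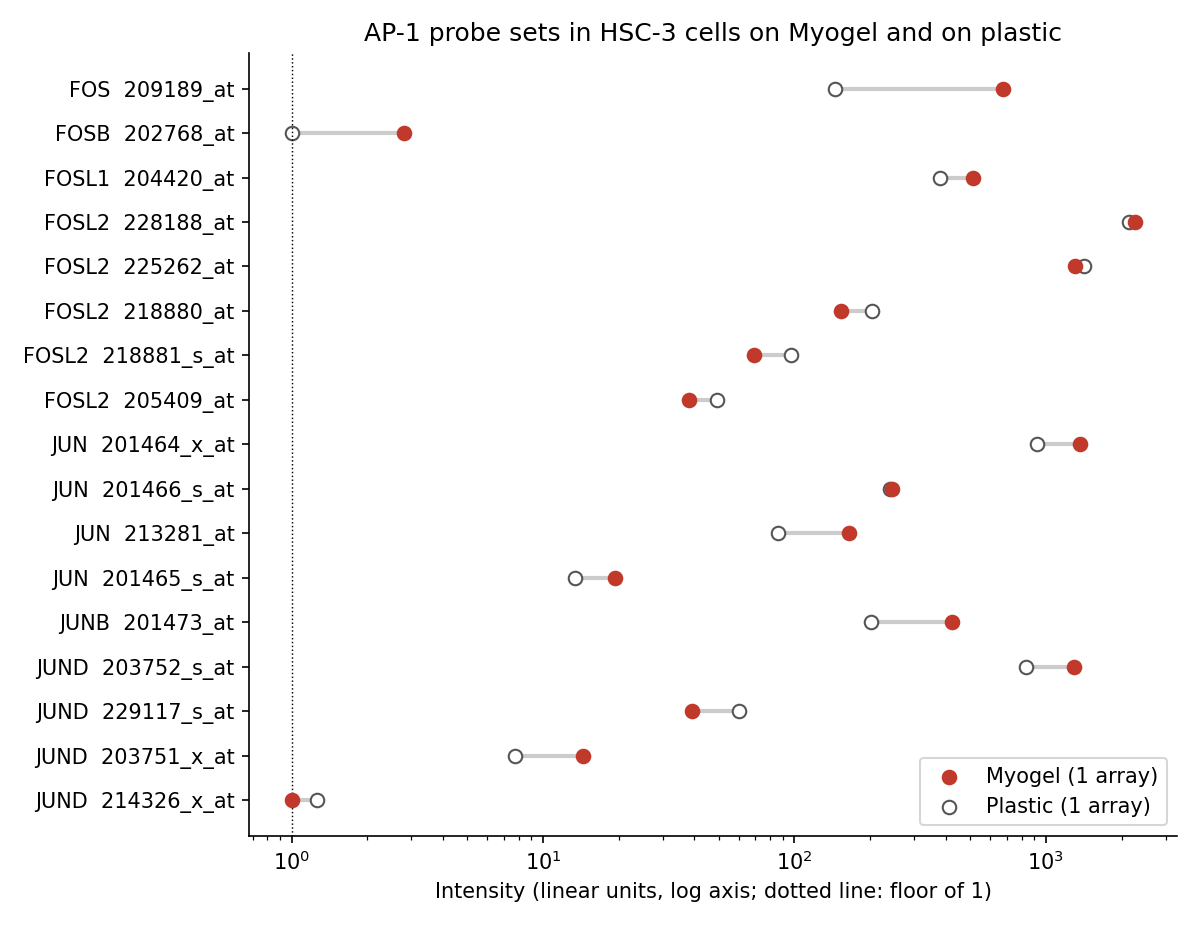
Intensity of each AP-1 probe set in linear units (x axis, log scale), with filled red points for the Myogel array, open points for the plastic array and the genes in rows, brightest probe set first. The Myogel point lies to the right for FOS (676 against 145), JUNB (424 against 201) and all 4 probe sets of JUN, and to the left for 4 of the 5 of FOSL2.

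**Figure D3:**
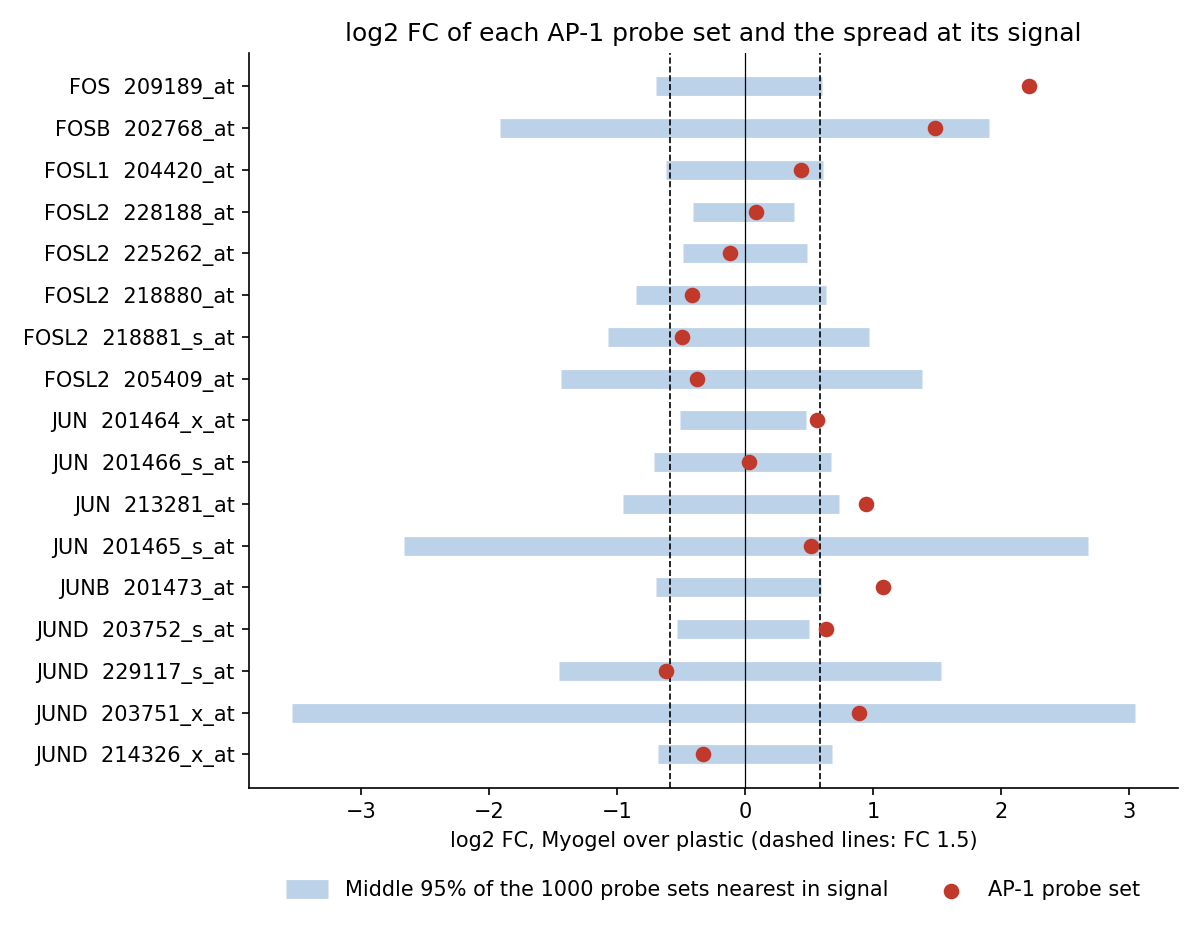
log2 FC of Myogel over plastic for each AP-1 probe set (red points, x axis), with a blue bar for the middle 95% of the 1000 probe sets closest in signal and dashed lines at FC 1.5. FOS, JUNB, 2 probe sets of JUN and the brightest of JUND lie to the right of their bars, and the other 12 lie on them.

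By brightest probe set, 4 of the 7 genes (FOS, FOSB, JUNB and JUND) were higher on Myogel by FC 1.5 or more, and 0 were lower. JUN, FOSL1 and FOSL2 lay within. Over all 19775 genes, 9.71% were higher and 17.5% were lower by the same limit. After quantile normalization, these shares were 13.2% higher and 13.0% lower. The median log2 FC over all probe sets was -0.11 as deposited. Of the 6 members with a signal above the median, which leaves out FOSB, 3 were higher, beside 0.93% of all genes that bright, and 0 were lower, beside 1.66%. The median log2 FC of the 7 genes was 0.64, and that of all genes was -0.07. Because these values chose the families, nothing is read from the gap.

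Of the 17 probe sets, 6 passed FC 1.5 upwards and 1 downwards, beside 13.8% and 24.2% of all probe sets. With a difference of at least 100 linear units required as well, 3 were higher (FOS, JUNB and the brightest of JUND) and 0 were lower, beside 0.65% and 0.916% of all probe sets. In the FOS family 4 of 8 probe sets had a positive log2 FC, and in the JUN family 7 of 9 did. FOSL2 alone gave 5 of these probe sets, and JUN and JUND gave 4 each. The median log2 FC over all probe sets was -0.11. Their share with a positive log2 FC was not computed, and nothing is read from these 2 counts.

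FOS and JUNB had a positive log2 FC in every setting tried, but some settings could not change it. An offset added to both arrays cannot turn a direction. Each gene has 1 probe set, and it lacks the suffixes _x_at, _s_at and _a_at. The mean over probe sets and the omission of those suffixes therefore return the value as deposited. The 8 settings other than as deposited include the offsets, this mean and this omission, so among them only the scalings could have turned the direction. Over these 8 the log2 FC of FOS ran from 1.90 to 2.33 and that of JUNB from 0.92 to 1.18, all beyond FC 1.5. JUN passed FC 1.5 in 5 of 8 settings, in which its log2 FC was as high as 0.94. FOSL1 and FOSL2 passed in none. When 50 was added to every value the log2 FC of FOSB was 0.05.

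**Figure D4:**
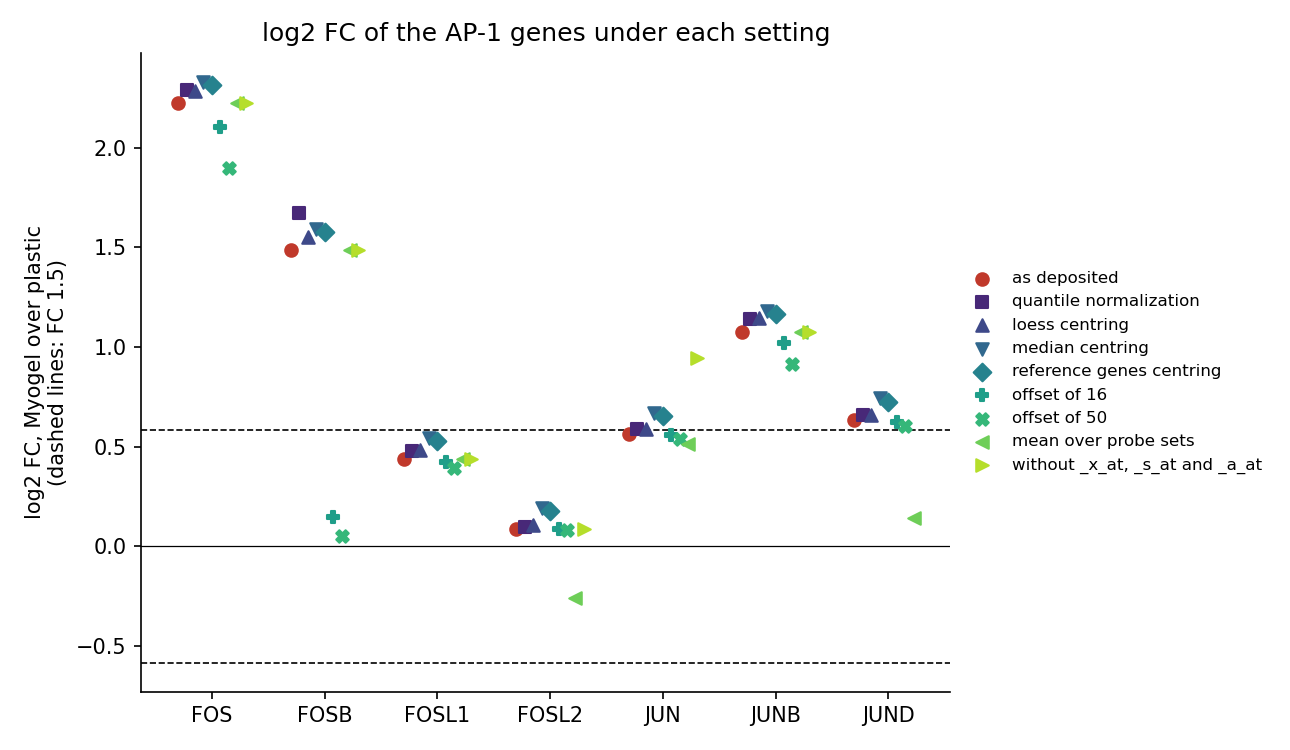
The log2 FC of Myogel against plastic (y axis) is drawn for the 7 genes (x axis) as deposited (red circles) and under 8 other settings (other markers), with dashed lines at FC 1.5. FOS lies between 1.90 and 2.33 and JUNB between 0.92 and 1.18 throughout, while FOSB drops to 0.15 and 0.05 with an offset and JUND to 0.14 with the mean over its probe sets, which has no point for the setting that omits probe sets of suffix _x_at, _s_at or _a_at.

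With 2 arrays, likeness of pattern is a single number, the gap between log2 FCs. Among genes of median signal or brighter outside the families, EGR1 was nearest to FOS, with 5318 on Myogel and 1701 on plastic and a log2 FC of 1.64 (middle 95% from -0.35 to 0.35), a gap of 0.58. EGR1 is a zinc finger factor of the same early response. TMEFF2 (log2 FC 1.16) and SLC22A25 (1.13) came next. Nearest to JUNB were ESCO2 (1.09), MIIP (1.04) and again SLC22A25.

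Among genes that act on AP-1, brightest probe sets of the promoter factors and kinases lay within FC 1.5, other than that of MAP2K6. Of 13 measured transcription factors known to act at the FOS and JUN promoters, none passed FC 1.5 in either direction (0 higher, 0 lower), and the median log2 FC was -0.01. Of these, 12 were in the brighter part of all genes, at or above the median signal, where 0.93% were higher and 1.66% were lower. SRF, which binds the FOS promoter with ELK1 and its relatives, had the largest difference among the brighter ones, with 143 on Myogel and 195 on plastic. This was a log2 FC of -0.45 in its brightest probe set. The other probe set of SRF had a log2 FC of -1.31, which is past FC 1.5. Of 19 measured genes of the MAP kinase cascades, which phosphorylate these factors and JUN, 0 were higher and 1 was lower, and the median was 0.00. Of the 19, 18 were among the brighter genes, and of these 0 were higher and 0 were lower. The lower one, named after its value was seen, was MAP2K6, an activator of p38 (72.6 on Myogel, 113 on plastic). RPS6KA2, a kinase downstream of ERK, had the largest difference among the brighter ones, with 292 on Myogel and 375 on plastic. These counts are of mRNA, and the activity of the kinases was not measured.

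Of 18 measured bZIP genes whose proteins can pair with or compete with AP-1 subunits, 1 was higher and 1 was lower, with a median log2 FC of 0.02, beside 9.71% higher and 17.5% lower of all genes. These were BATF (2.60 on Myogel, the floor of 1.00 on plastic) and BATF2 (60.7 on Myogel, 121 on plastic), both named after their values were seen. BACH1, a repressor that binds AP-1-like motifs with MAF proteins, had 2131 on Myogel and 2815 on plastic. Its log2 FC of -0.40 lay just below the middle 95% for its signal (-0.39 to 0.37). The 3 probe sets of BACH1 ranged in log2 FC from -1.67 to -0.13. Of 14 measured genes that degrade, destabilise or repress AP-1 mRNA and protein, 2 were higher and 0 were lower, with a median log2 FC of 0.15, beside the same shares of all genes. They were BATF, again, and TRIB1, a scaffold for the ubiquitin ligase COP1, with 599 on Myogel and 399 on plastic. TRIB1 only just reached FC 1.5, and its log2 FC of 0.59 lay inside the middle 95% for its signal (-0.63 to 0.61). The probe sets of TRIB1 ranged in log2 FC from 0.00 to 0.88.

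Most genes known as AP-1 targets lay within FC 1.5. Of 33 measured, FC 1.5 was passed upwards by 1 and downwards by 5, beside the 9.71% and 17.5% of all genes, and 27 lay within it. The median log2 FC was -0.03. Of the 25 brighter targets, 1 was higher and 0 were lower, beside 0.93% and 1.66% of all genes that bright. Nothing about the targets is read from these counts. CXCL8, a neutrophil chemokine, was the higher one, with 1589 on Myogel and 1035 on plastic in its brightest probe set and a log2 FC of 0.62 (middle 95% from -0.51 to 0.47), while its other probe set had a log2 FC of -1.20. The lower ones were IL6, IVL, MMP13, CCL2 and SPRR3, named after their values were seen, and all 5 were below the median signal. IL6, an inflammatory cytokine, had 76.0 on Myogel and 143 on plastic, and IVL, a precursor of the cornified envelope, had 31.8 on Myogel and 75.2 on plastic. The brighter targets MMP1, a collagenase (3471 on Myogel, 3046 on plastic), and PLAU, the urokinase (5482 on Myogel, 4868 on plastic), also chosen by their values, both lay within FC 1.5.

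Several other early response genes were higher on Myogel too. Of 32 measured, 7 were higher, 1 was lower and 24 lay within FC 1.5, and the median log2 FC was 0.25, beside 9.71% higher and 17.5% lower of all genes. Of the 22 brighter ones, 6 were higher and 0 were lower, beside 0.93% and 1.66% of all genes that bright. The list was made with earlier results of these arrays known, and nothing is read from these counts. Besides EGR1, the highest of the brighter ones were IER2, with 2034 on Myogel and 1054 on plastic, and DUSP6, a phosphatase that switches off ERK, with 1775 on Myogel and 1025 on plastic. All 3 probe sets of EGR1 and of DUSP6 were higher on Myogel. The early genes ATF3 (114 on Myogel, 151 on plastic) and NR4A3 (22.9 on Myogel, 43.9 on plastic), named after their values were seen, were not.

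**Figure D5:**
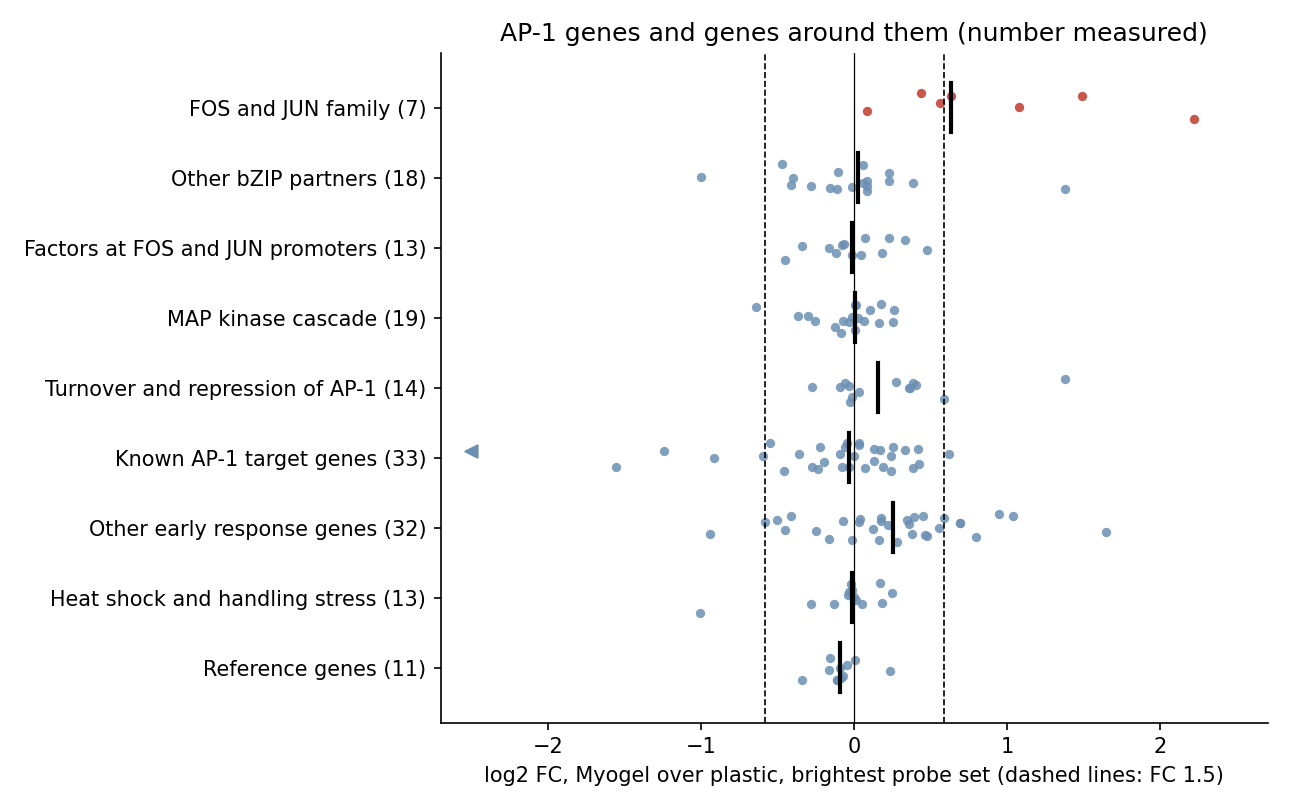
log2 FC of Myogel over plastic in the brightest probe set (x axis) for each measured gene of the FOS and JUN family (red) and of 8 lists around it (blue), with the number measured in parentheses, black bars for medians and dashed lines at FC 1.5. The arrow marks CCL2, at -3.51, beyond the axis. The 7 AP-1 genes have a median of 0.64, and the target list has a median of -0.03.

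The arrays differed in other ways than the surface. The ratio of the 3′ to the 5′ probe set of ACTB was 6.10 on Myogel and 3.19 on plastic, and that of GAPDH 1.22 on Myogel and 1.10 on plastic. The 27 probe sets for the labelling spikes had a median log2 FC of -1.72, and the 18 for the hybridization spikes one of -0.36. The part of these differences in the values of FOS and JUNB was not tested. Of 13 measured heat shock and stress genes 0 were higher and 1 was lower, HSPB1, with 722 on Myogel and 1452 on plastic. Of 11 reference genes 0 were higher and 0 were lower, with a median of -0.09. All but 2 of the stress genes and all 11 reference genes were among the brighter genes, of which 0.93% were higher and 1.66% were lower.

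The 5 measured markers of squamous epithelium, KRT5, KRT14, SFN, EPCAM and CDH1, had values from 3992 to 18224 on Myogel and from 4385 to 18856 on plastic. The 10 markers of smooth muscle, the tissue of the leiomyoma, summed to 1714 on Myogel and 1767 on plastic, with values from 1.00 to 756 on Myogel and from 5.84 to 703 on plastic. ACTA2 and ACTG2 were the brightest, and ACTA2 alone gave 756 of the sum on Myogel and 703 on plastic. The sums hold the brightest probe set of each gene, and dimmer ones differed. Probe sets of ACTA2 ranged in log2 FC from -3.60 to 0.10 and those of ACTG2 from -0.49 to 0.18. In both genes only 1 probe set, the brightest, was higher on Myogel. Past FC 1.5, LMOD1 was higher (30.9 on Myogel, 14.3 on plastic), and SMTN (88.4 on Myogel, 136 on plastic) and CNN1 (the floor on Myogel, 17.6 on plastic) were lower. These 3 were named after their values were seen. Over all genes, 9.71% were higher and 17.5% were lower by the same limit. The 6 fibroblast markers summed to 711 on Myogel and 709 on plastic, the 5 of endothelium to 308 on Myogel and 421 on plastic, and the 3 measured of blood to 536 on Myogel and 489.7 on plastic. The brightest of these were COL1A1 and DCN, PECAM1 and KDR, and CD14 and HBB. Past FC 1.5, 1 fibroblast marker was higher and 0 were lower, and of endothelium 0 were higher and 4 were lower. All of them were below the median signal of genes, and no blood marker passed. Probe sets of COL1A1 ranged in log2 FC from -0.21 to 0.72 and those of DCN from -1.21 to 4.19. Those of PECAM1 ranged from -2.06 to 0.42 and those of HBB from -2.36 to 0.37. The part of these markers in the values of FOS and JUNB was not tested.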

How the data were processed

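Gene expression was measured on 2 Affymetrix U133 Plus 2.0 arrays, 1 with pooled RNA of HSC-3 cells on Myogel and 1 with that of cells on plastic, assigned by the sample titles. The treatment label gives uncoated plates for both, against the titles and the methods. dChip gave the intensity values that the authors deposited. For its version, its model and any scaling of the arrays, nothing is stated by the sources used here. Values were on a linear scale with a floor of 1 (4.73% of probe sets on Myogel, 4.42% on plastic), and their median was 52.5 on Myogel and 59.7 on plastic. Depth here means brightness over background.

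Probe sets were named by the platform annotation, with symbols updated by Entrez identifier through RefSeq (GRCh38.p14). Of 54613 probe sets, 41091 had 1 symbol, 1801 several and 11721 none here. A gene was represented by its brightest probe set (highest mean of the 2 log2 values). FC was the ratio of Myogel to plastic, without scaling, and FC 1.5 was the limit, after the methods. The authors report a much smaller share of genes past FC 1.5 than the 9.71% and 17.5% here. Their methods name no further filter, so the calls here are not to be taken as theirs. The genes named were all members and, in each list, up to 3 in each direction by FC at or above the median signal, or else the gene with the largest difference there, and the 2 brightest markers of each other cell type. Members and lists were chosen with earlier results of these data known. List genes without a probe set of their own were not analysed here. Python 3.11.15, numpy 2.4.6, pandas 2.3.3 and statsmodels 0.14.6 were used, and the scripts were tested on simulated data. The alternatives were 4 other scalings, offsets of 16 and 50, limits of FC 1.2 and FC 2, a difference of 100 linear units, the mean over probe sets, and omitting probe sets with the suffix _x_at, _s_at or _a_at.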

Additional observations from a re-analysis of the deposited data

How the results depend on the processing

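With 1 array for each surface, leaving out a replicate was not possible, and depth limits the dim probe sets most, FOSB above all. No paired analysis was possible because each surface has 1 array. The count of AP-1 genes past FC 1.5 was 4 higher and 0 lower. It was 5 higher after quantile normalization, loess centring, and centring on all probe sets or on the reference genes, 3 with an offset of 16 or 50, with FC 2, with 100 linear units or with the mean over probe sets, 6 with FC 1.2, and 0 lower in each. The share of all genes moved too, with 13.2% higher and 13.0% lower after quantile normalization, 1.81% and 2.89% with an offset of 50, 18.1% and 30.8% with FC 1.2, 6.36% and 10.7% with FC 2, and 0.445% and 0.627% with 100 linear units. After loess centring 13.32% of all genes were higher and 12.85% lower. Median centring gave 11.27% and 15.16%, and centring on reference genes 10.96% and 15.48%. With an offset of 16 the shares were 5.295% and 10.25%, and with the mean over probe sets 11.61% and 21.43%. The cause of the changes below was not tested.

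Of the 17 probe sets, 6 had a higher value past the limit and 1 a lower one, beside 13.8% and 24.2% of all probe sets. There were 8 higher under each of the 4 other scalings, 9 with FC 1.2, 4 with either offset or when probe sets of suffix _x_at, _s_at or _a_at were omitted, and 3 with FC 2 or with 100 linear units. With FC 1.2 there were 5 lower, and 0 under each of the other alternatives. With 100 linear units the shares of all probe sets were 0.65% higher and 0.916% lower. For the other alternatives the share of all probe sets was not computed, and nothing is read from these counts. FOSB had a log2 FC of 0.15 with an offset of 16 and 0.050 with 50. JUN had 0.59 after quantile normalization, 0.59 after loess centring, 0.67 after median centring, 0.65 after centring on reference genes and 0.94 when probe sets with the suffix _x_at, _s_at or _a_at were omitted, all past FC 1.5. JUND had 0.14 with the mean over probe sets, and no value without those probe sets, since all 4 of its own are of this kind. No other log2 FC of a member crossed FC 1.5. Of 97 values for members under an alternative, 77 kept their side of the limit or lay within 1.5 times the count.

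Of 286 list counts under an alternative, 194 lay within 1.5 times the count given. As deposited, the counts stand beside 9.71% higher and 17.5% lower of all genes, and these shares moved with the setting. For AP-1 targets (1 higher, 5 lower) the counts ran from 0 to 5 higher and from 0 to 9 lower, with 9 at FC 1.2, 3 at FC 2, 2 with an offset of 50 and 0 with 100 linear units. For the other early genes (7 higher, 1 lower) they ran from 2 higher at FC 2 to 16 higher at FC 1.2, and from 0 to 5 lower. For the genes of turnover and repression they ran from 0 to 7 higher and from 0 to 1 lower, for bZIP partners from 0 to 2 higher and from 0 to 5 lower, for promoter factors from 0 to 2 higher and from 0 to 3 lower, and for MAP kinase genes from 0 to 2 higher and from 0 to 3 lower. Heat shock genes had 0 higher and from 0 to 2 lower, as had the reference genes. Squamous markers had 0 higher and up to 1 lower. Smooth muscle markers (1 higher, 2 lower) ran to 3 either way, fibroblast markers to 1 higher and 2 lower, endothelium markers (0 higher, 4 lower) from 0 to 4 lower, and blood markers to 1 either way.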
